A study of Mus musculus with 3 samples.

Results

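The Sox, Pou and Pax genes encode 3 families of transcription factors, and 31 of them were read here out of 19057 genes. They were taken by name, as every probe set with a single gene symbol of the form Sox, Pou or Pax followed by the family numbering, without Sox2, Sox7, Sox17, Pou5f1 and Pou3f1. This gave 14 Sox, 8 Pou and 9 Pax genes, and the rule uses no expression value. The cells are R1, an embryonic stem (ES) cell line of mouse strain 129, and the 3 samples are labelled as biological repeats of this 1 line, with no treatment, age or second condition named. Total RNA was the starting material and biotin the label. Signal was read on the Affymetrix Mouse Gene 1.0 ST array, whose probes lie along the exons of each transcript. Nothing in the labels says that the repeats were separate cultures, so the spread given here may be technical. Sox3, Sox14, Pou1f1, Pou2f1, Pou3f4 and Pou4f2 had no probe set under their symbol in the platform annotation used. They were not analysed here and are in none of the family counts.

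Sox proteins bind DNA through an HMG box, Pou proteins through a POU-specific domain joined to a homeodomain, and Pax proteins through a paired domain. In ES cells Sox2 and Pou5f1 sit side by side on composite DNA elements and hold the pluripotent state, and related members can bind like sequences. Most of the other members are known as lineage factors of later embryos, in neural tissue, neural crest, cartilage, muscle, kidney, thyroid, pancreas, lymphocytes and germ cells.

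Promoter sequence was one feature that the choice of genes did not use. A promoter of 300 bases, from 250 before to 50 after the start site, was found for 24 of the 31 genes in the RefSeq table (assembly GRCm38.p6), and the CpG dinucleotides in it were counted. Taking the richest promoter of each gene, the median was 19.5 CpG among these members and 8 among all 27025 genes of the RefSeq table. That set is not the set of genes on the array. Of the 24, 10 reached the upper quartile of the RefSeq table's genes (22 CpG), as did 25.2% of those genes. The promoters below show how far members differ. They are the 250 bases upstream of the start of Sox12 and Sox15, which passed the highest of 3 background cutoffs described in the next paragraph, and of Pou4f1 and Sox5, which passed only the lowest, written 5′ to 3′ on the gene's strand with each CpG in capitals.
Sox12, chr2:152398047-152398296, minus strand: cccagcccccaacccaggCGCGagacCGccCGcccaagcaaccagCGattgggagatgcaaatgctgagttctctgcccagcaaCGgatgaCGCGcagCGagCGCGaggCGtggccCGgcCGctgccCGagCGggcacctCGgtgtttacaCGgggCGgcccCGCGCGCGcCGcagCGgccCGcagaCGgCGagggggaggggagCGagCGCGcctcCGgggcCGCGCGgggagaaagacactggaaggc
Sox15, chr11:69654787-69655036, plus strand: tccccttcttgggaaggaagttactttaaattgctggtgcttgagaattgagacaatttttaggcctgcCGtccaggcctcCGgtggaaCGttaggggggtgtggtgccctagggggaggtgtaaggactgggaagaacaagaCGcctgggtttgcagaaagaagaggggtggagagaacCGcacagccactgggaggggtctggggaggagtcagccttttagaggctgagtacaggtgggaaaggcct
Pou4f1, chr14:104468000-104468249, minus strand: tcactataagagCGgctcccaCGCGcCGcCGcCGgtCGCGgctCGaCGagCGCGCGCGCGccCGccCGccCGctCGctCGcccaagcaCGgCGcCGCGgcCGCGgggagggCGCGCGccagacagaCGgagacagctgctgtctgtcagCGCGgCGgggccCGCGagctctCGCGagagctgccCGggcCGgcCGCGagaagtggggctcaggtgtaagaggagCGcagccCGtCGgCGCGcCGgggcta
Sox5, chr6:143947107-143947356, minus strand: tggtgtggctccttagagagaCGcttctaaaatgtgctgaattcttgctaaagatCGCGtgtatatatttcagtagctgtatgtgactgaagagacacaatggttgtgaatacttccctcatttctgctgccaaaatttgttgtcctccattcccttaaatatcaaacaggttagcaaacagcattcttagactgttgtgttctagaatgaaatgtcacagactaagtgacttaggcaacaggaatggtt
Sox12 and Pou4f1 are both CpG-rich, with 47 and 57 CpG in 300 bases, and Sox15 and Sox5 are both poor, with 5 and 3. These 4 were picked after their values were seen, to show the range, and carry no conclusion on signal. The 6 members over the highest cutoff had 5 to 47 CpG (median 29) and the other 18 had a median of 18, with no test made. A search of both strands for the octamer ATGCAAAT, the classical Pou binding sequence, matched in Sox12, starting 195 bases before the start site, and in the first 50 transcribed bases of Sox1. That is 2 of 32 member promoters, where 1.74% of all promoters hold it. The Sox-type letters ACAATG were in 4 of the 32 (12.6% of all promoters) and ACAAAG in 10 (18.7%), of which 5 belong to Sox6, a gene with 6 promoters in the table. A match is a description of the letters and was not tested for binding.

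The first question was which members gave signal. Background was set on each array by gene families that ES cells are not known to use. A gene was called above background when it exceeded, on all 3 arrays, a cutoff that 95% of 1182 smell and pheromone receptor genes (olfactory and vomeronasal) did not reach (log2 4.72, 4.60 and 4.60 in repeats 1, 2 and 3). By this cutoff 28 of the 31 members were above background, against 72.1% of 17723 genes outside the background families. A stricter cutoff at the 99th percentile of the same receptors (log2 5.48, 5.39 and 5.52) left 11 members, 9 Sox and 2 Pou, where 55.5% of genes passed. The highest cutoff, the 95th percentile of 152 taste receptor, keratin-associated, late cornified envelope, defensin and Mrgpr genes (log2 6.23, 6.31 and 6.25), left 6 members, all of them Sox genes, where 42.0% of genes passed. Why these families read higher than the receptors was not tested, so a member under this cutoff was not shown to be silent, nor one between the cutoffs to be expressed.

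The counts by family follow for each cutoff, and differences between families were not tested. Of 14 Sox genes 13 passed the receptor cutoff, 9 the stricter one and 6 the highest. For the 8 Pou genes the counts were 7, 2 and 0. For the 9 Pax genes they were 8, 0 and 0. The Sox share at the highest cutoff, 42.9%, was near the share of all genes, so it does not set Sox genes apart. The Pax share went from 88.9% at the first cutoff to 0 of 9 at the second. Among other families of developmental regulators, 16 of 37 Hox genes passed the receptor cutoff, 3 the stricter one and 0 the highest, and of 40 Forkhead genes 32, 22 and 13 did. Intensity depends on the probes of each probe set, so levels of different genes were compared with background and not with each other. Hybridisation between family members of like sequence was not tested.

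**Figure D1:**
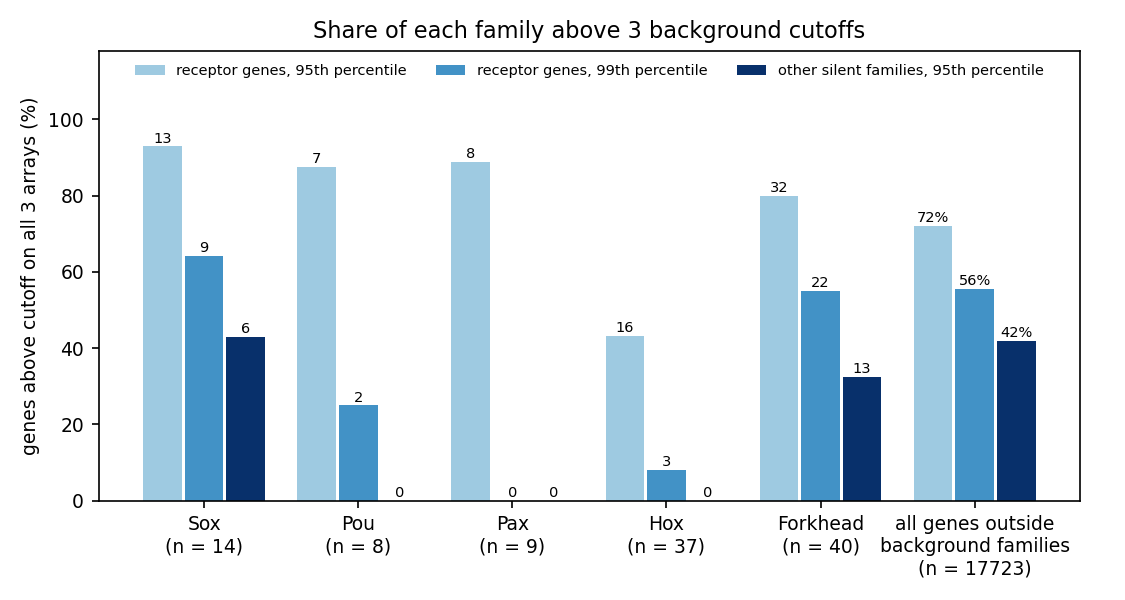
Percent of genes above each of 3 background cutoffs on all 3 arrays, for the Sox, Pou, Pax, Hox and Forkhead genes and for all 17723 genes outside the background families; numbers over the bars are genes, or percents for the last group. The Sox bars fall from 13 to 9 to 6 genes, while Pou falls from 7 to 0 and Pax from 8 to 0.

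The group C genes Sox4, Sox11 and Sox12, activators found in many embryonic progenitors, were all above the highest cutoff. Intensities are given for repeats 1, 2 and 3 in that order, followed by the mean log2 intensity ± SD (n = 3 throughout). Sox4 read 141.5, 160.9 and 142.3 (7.21 ± 0.105). Sox11 read 101.7, 108.2 and 110.6 (6.74 ± 0.063). Sox12 read 108.0, 92.7 and 98.7 (6.64 ± 0.11). Repeat 2 was the highest for Sox4 and the lowest for Sox12, so the group had no common order of repeats. Of the 1182 receptor genes, 1 had a higher mean than Sox4, 1 a higher mean than Sox11 and 2 one above Sox12. Of the 152 genes of the other silent families, 2 had a higher mean than Sox4, 2 than Sox11 and 3 than Sox12.

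Sox1, the group B1 gene of early neural plate and neural progenitors, read 129.3, 102.7 and 121.9 (6.88 ± 0.17), with repeat 2 lowest but still 0.37 log2 units over the highest cutoff. Its group B2 counterpart Sox21, which counteracts B1 factors in the neural tube, read 91.0, 75.7 and 75.9 (6.33 ± 0.15). Sox21 exceeded the highest cutoff on repeat 1 only, where it differed from it by 0.28 log2 units, and lay under it on repeats 2 and 3, at -0.0671 and -0.0015. The misses were smaller than its SD. Sox15, the mouse group G gene, known from ES cells, trophoblast and muscle precursors, read 135.6, 138.0 and 134.1 (7.09 ± 0.021). It had the second smallest SD of the 28 members above background and lay at least 0.80 log2 units over the highest cutoff on every array.

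The group D genes, which lack a transactivation domain of their own and pair through a coiled coil, did not all pass the same cutoffs. Sox13 gave 89.5, 94.6 and 104.6 (6.59 ± 0.11) and passed the highest cutoff on all 3 arrays. Sox5 gave 29.8, 26.1 and 27.2 (4.79 ± 0.099), and Sox6 gave 29.9, 29.2 and 31.7 (4.92 ± 0.060). These partners of Sox9 in cartilage passed only the receptor cutoff, Sox5 by 0.11 to 0.18 log2 units and Sox6 by 0.19 to 0.38.

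Group E holds Sox9, the factor of chondrocytes and testis determination, Sox10, that of neural crest and glia, and the related Sox8. Sox8 read 45.9, 47.3 and 48.9 (5.57 ± 0.045) and passed the stricter receptor cutoff. Sox9 read 41.9, 45.2 and 40.4 (5.41 ± 0.082) and passed it on 1 array. Sox10 read 42.5, 38.2 and 40.3 (5.33 ± 0.076) and passed it on none. Their differences from the highest cutoff ran from -1.05 to -0.64 log2 units. The group F gene Sox18, of endothelium and lymphatic vessels, read 52.2, 52.6 and 57.1 (5.75 ± 0.071) and stood between the same cutoffs. Sox30, a factor of male germ cells and the only Sox gene not called, read 24.6, 20.9 and 19.6 (4.43 ± 0.17). It fell below the receptor cutoff on every array by 0.098 to 0.31 log2 units, and 89 receptor genes had a higher mean.

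**Figure D2:**
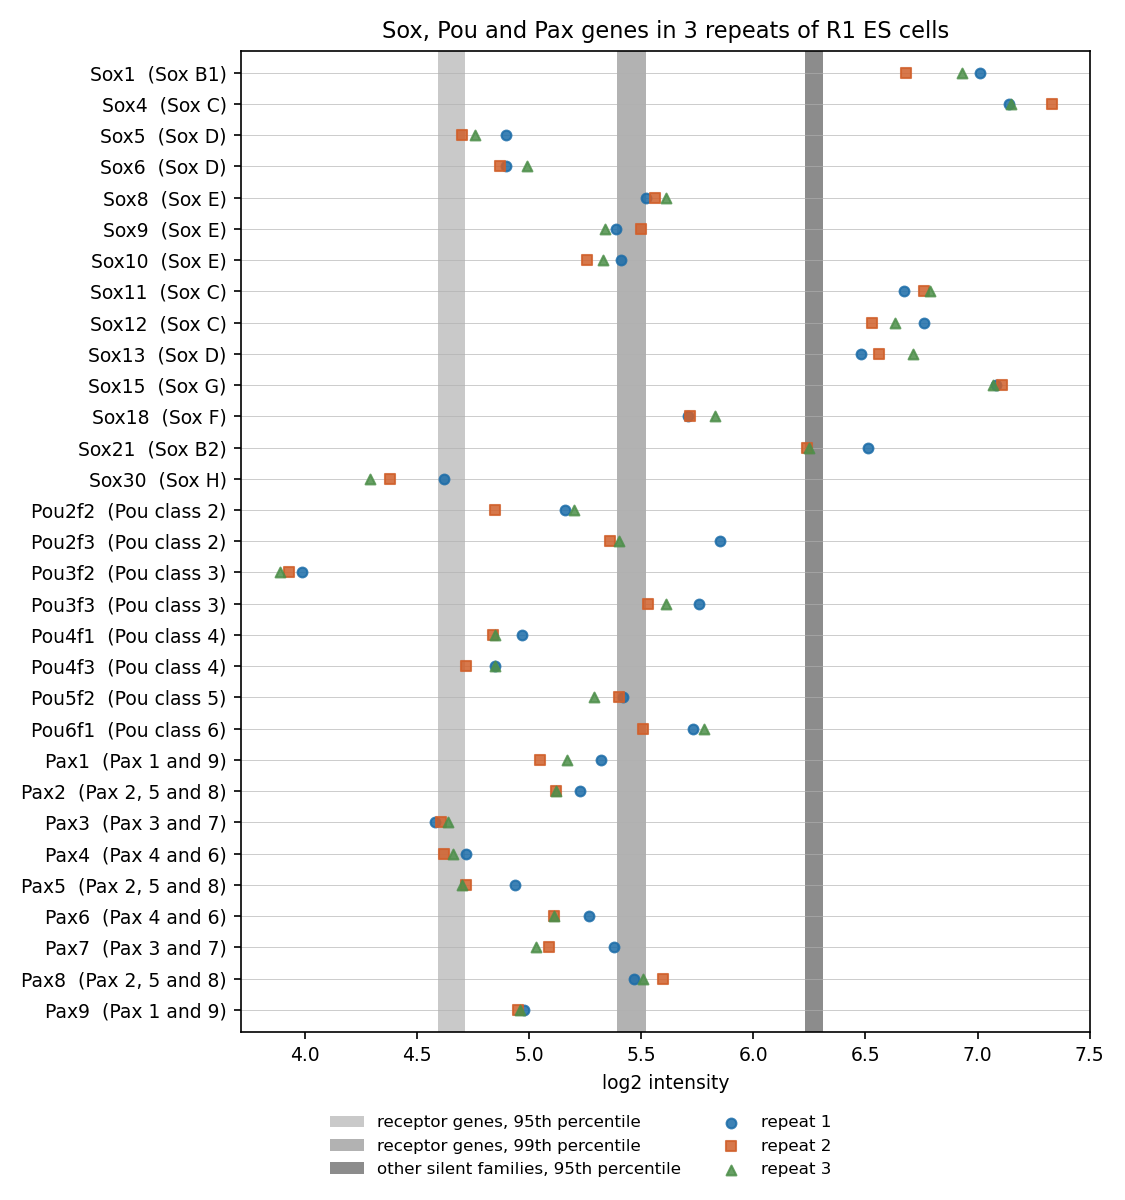
Log2 intensity of each of the 31 genes in repeats 1 (circles), 2 (squares) and 3 (triangles); grey bands span the 3 arrays' values of the receptor 95th, receptor 99th and other silent family cutoffs, from left to right. Sox1, Sox4, Sox11, Sox12, Sox13 and Sox15 lie right of the last band, no Pou or Pax gene does, and the order of genes along the axis is not an order of expression.

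No Pou gene passed the highest cutoff. Pou6f1, a brain factor, read 52.9, 45.5 and 54.9 (5.67 ± 0.14), and Pou3f3, of forebrain and kidney, read 54.1, 46.4 and 48.8 (5.63 ± 0.11). These were the Pou genes above the stricter receptor cutoff on all 3 arrays, with repeat 2 the lowest for both. Pou2f3, the factor of tuft cells and keratinocytes, read 57.6, 41.1 and 42.2 (5.54 ± 0.27). Its repeat 1 lay 0.47 log2 units over the mean of the others, and only there did it pass the stricter cutoff.

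Pou2f2, known for B lymphocytes, read 35.8, 28.9 and 36.7 (5.07 ± 0.19). Pou5f2, a germ cell relative of Pou5f1, read 42.8, 42.2 and 39.2 (5.37 ± 0.068). The sensory neuron factor Pou4f1 read 31.4, 28.5 and 28.9 (4.89 ± 0.074), and the hair cell factor Pou4f3 read 28.9, 26.4 and 28.8 (4.81 ± 0.075). All of these were above the receptor cutoff, the class 4 genes by 0.12 to 0.25 log2 units. Pou5f2 also exceeded the stricter cutoff on 1 array.

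Pou3f2, a neuronal factor, was the only member read by 2 probe sets, and these disagreed. Probe set 10511812 gave 44.5, 36.1 and 39.6 (log2 5.32 ± 0.15) and passed the receptor cutoff on all 3 arrays. Probe set 10511810 gave 5.6, 6.4 and 5.5 (2.55 ± 0.12) and passed on none. Their mean on the log2 scale, 3.93 ± 0.050, lay below the receptor cutoff, so the gene was not called. With the brighter probe set alone it would be, and 29 members would then be above background.

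No Pax gene passed the stricter receptor cutoff on all 3 arrays. Pax8, of thyroid and kidney, read 44.3, 48.6 and 45.6 (5.53 ± 0.069) and passed the stricter cutoff on 1 array, as no other Pax gene did. Its relatives were Pax2, of kidney and inner ear, at 37.5, 34.7 and 34.7 (5.15 ± 0.065), and Pax5, the B cell commitment factor, at 30.6, 26.4 and 26.0 (4.79 ± 0.13). Pax2 exceeded the receptor cutoff by 0.51 to 0.52 log2 units and Pax5 by 0.097 to 0.22.

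Pax1 and Pax9, of sclerotome and pharyngeal pouches, read 39.9, 33.0 and 36.1 (5.18 ± 0.14) and 31.6, 30.8 and 31.1 (4.96 ± 0.019). Pax9 had the smallest SD of the members above background. Pax6, of eye, forebrain and pancreas, read 38.6, 34.4 and 34.5 (5.16 ± 0.095), with repeat 1 the highest. Pax4, of pancreatic beta cells, read 26.4, 24.6 and 25.2 (4.67 ± 0.051), and its margin over the receptor cutoff was 0.005, 0.026 and 0.054 log2 units, about its SD or less. Pax7, of muscle satellite cells, read 41.7, 34.2 and 32.6 (5.17 ± 0.19). Pax3, of neural crest and muscle precursors, read 23.9, 24.5 and 24.9 (4.61 ± 0.029) and was above the cutoff on repeats 2 and 3 only, by 0.016 and 0.035, so it was not called. Neither Pax3 nor Pax4 can be placed on one side of the cutoff with these repeats.

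Agreement between the repeats was examined next. The 28 members above background had a median SD of 0.0886 log2 units, beside 0.101 for all 12841 such genes. Of the 28, 12 had an SD over that of the middle gene, and 1, Pou2f3, was over the 90th percentile of all genes (0.209). Pou2f3 spanned 1.4-fold between its highest and lowest repeat, Pax7 1.28-fold, Pou2f2 1.27-fold and Sox1 1.26-fold. Altogether 7 members spanned more than 1.2-fold and none more than 1.5-fold, and Sox15 and Pax9 spanned 1.03-fold.

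Variance beyond the trend was tested for every gene above background on at least 1 array with limma, which compared each gene's variance with that usual at its mean intensity. Of the 29 members tested, 0 were called after Benjamini-Hochberg adjustment, and 0 had an unadjusted p under 0.05. In the same test 22 of 13610 genes (0.162%) were called, and 782 of them had an unadjusted p under 0.05. The smallest member p was that of Pou2f3 (limma, unadjusted p = 0.0567, adjusted p = 0.893). All other members had an adjusted p of 0.992 or more. With 3 arrays, a p over the threshold does not show that the repeats were equal. In simulated data the test called 3 of 50 genes changed by 0.5 log2 units on 1 array. The widest range among the members was 0.49 log2 units, in Pou2f3, so the test would miss most differences of that size.

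**Figure D3:**
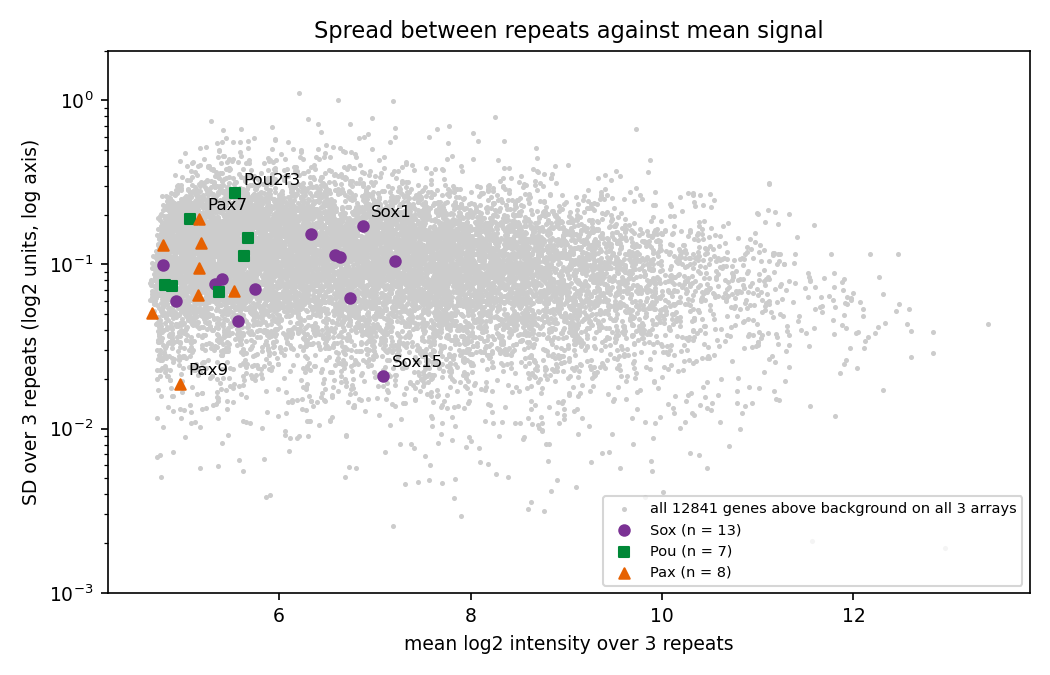
SD over 3 repeats (log axis) against mean log2 intensity for the 12841 genes above background (grey) and the 13 Sox, 7 Pou and 8 Pax genes among them. The members lie within the cloud of all genes, from Pax9 (0.019) and Sox15 (0.021) at the bottom to Pou2f3 (0.27) at the top.

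Small differences nevertheless ran one way in the Pou and Pax genes. Repeat 1 was the highest array for 17 of the 28 members, against 30.0% of all genes above background, and repeat 2 was the lowest for 17, against 34.8%. By family, repeat 1 was highest in 5 of 13 Sox, 5 of 7 Pou and 7 of 8 Pax genes. Repeat 1 lay over the mean of the other repeats in all 7 Pou genes, in 7 of 8 Pax genes, the exception being Pax8, and in 5 of 13 Sox genes. These counts hold only genes over the receptor cutoff on all 3 arrays, which was highest on repeat 1 (log2 4.72, 4.60 and 4.60). A gene near the cutoff was thus kept more readily when high on repeat 1. Of the members left out, Pax3 was lowest on repeat 1 and missed the cutoff only there, and Sox30 and Pou3f2 were highest on repeat 1. The median difference of repeat 1 from the others was 0.13 log2 units for Pou, 0.14 for Pax and -0.025 for Sox. It was -0.011 for all genes above background and 0.020 for the 7489 of them with means in the members' range. For the 16 Hox genes above background it was 0.13 and for the 32 Forkhead genes 0.030. A difference of this size was thus not confined to Pou and Pax genes.

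The same direction was seen in genes taken as silent. Repeat 1 was highest in 46.5% of the receptor genes (median difference 0.045) and in 41.4% of the other silent families (0.041), and the receptor cutoff itself was 0.12 log2 units higher on repeat 1 than on repeat 2. The cutoff from the other silent families ran the other way, with a difference of -0.077 between the same repeats. Among 7489 genes with means in the members' range (4.67 to 7.21) repeat 1 was highest in 38.0%. Repeat 2 was lowest in 41.8% of those genes and in 41.2% of the receptor genes. Repeat 1 was also highest in 12 of the 16 Hox genes above background and in 14 of 32 Forkhead genes. After quantile normalization it was highest in 15 of 28 members against 34.4% of genes, and after centring each array on its median in 14 of 28 against 23.2%. After the same steps repeat 2 was lowest in 13 and in 16 of the 28. The part of background signal in this difference was not tested.

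**Figure D4:**
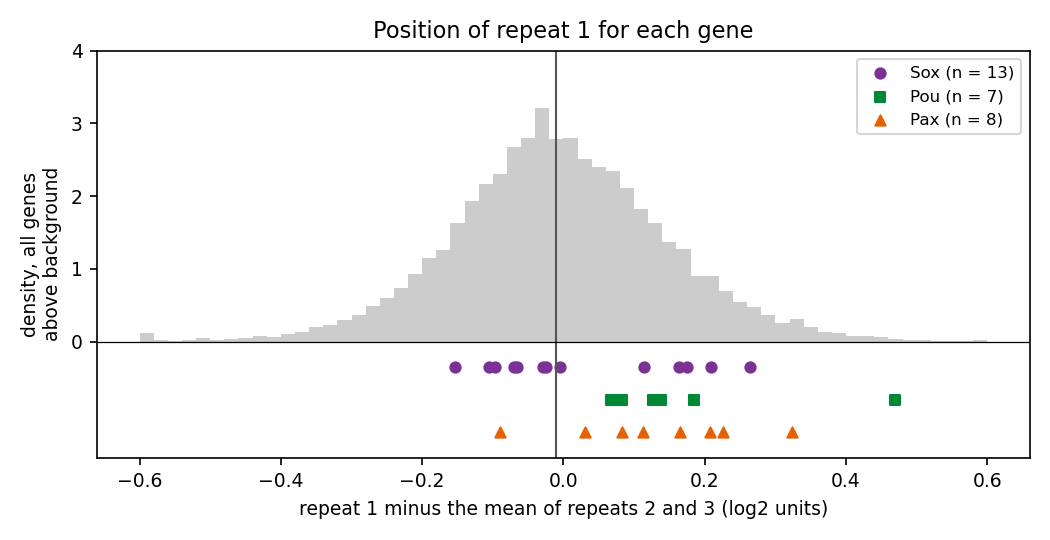
Repeat 1 minus the mean of repeats 2 and 3, in log2 units, for all genes above background (histogram, values beyond 0.6 on either side gathered in the end bins, vertical line at the median of -0.011) and for the Sox, Pou and Pax genes above background (symbols below it). All 7 Pou and 7 of 8 Pax genes lie right of zero, and 5 of 13 Sox genes do.

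Other genes of these pathways gave a mixed picture. Genes for proteins that work with Sox, Pou and Pax factors were all above background, with 12 of 12 measured genes over the receptor cutoff and 10 over the highest, beside 72.1% and 42.0% of all genes. They include the importin Kpnb1 (11.43 ± 0.049), the Groucho corepressor Tle4 (9.87 ± 0.096) and the Pax-interacting protein Paxip1 (8.39 ± 0.0050). The 2 below the highest cutoff were Tle2 (5.23 ± 0.055) and Pou2af1 (4.81 ± 0.19), the B cell coactivator of Pou2f2. Of 10 measured genes of the network that acts with Pax genes in eye, ear and muscle (Six2 to Six6, Eya1 to Eya4 and Dach1), 6 passed the receptor cutoff, and Six4 (7.30 ± 0.10) and Eya3 (8.30 ± 0.054) also passed the highest. Six3, Six6, Eya4 and Dach1 were not called above background, and 6 of 10 is under the 72.1% of all genes, a difference that was not tested. The limma test called none of these genes.

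Marker lists for the cell types in which members are known to act were read against the same shares of all genes, 42.0% at the highest cutoff and 72.1% at the receptor cutoff. Over the highest cutoff on all 3 arrays were 0 of 7 B cell, 0 of 8 pituitary, 0 of 5 islet, 0 of 3 thyroid, 0 of 8 lens, 0 of 7 kidney and 0 of 5 sensory neuron genes. One gene passed it in each of the cartilage (Col2a1, of 8), muscle (Actc1, of 7), endothelial (Pecam1, of 8) and spermatogenic (Sycp3, of 8) lists. Of 11 neural genes 3 did (Nes, Tubb3 and Elavl3), of 12 neural crest and glia genes 4 (Cnp, Erbb3, Ngfr and Foxd3), and of 8 primitive endoderm genes 2 (Col4a1 and Lama1). At the receptor cutoff 1 B cell, 1 thyroid and 1 sensory neuron gene passed, with 2 islet, 4 pituitary and 4 spermatogenic genes. The lens, kidney and muscle lists had 5 genes each above it, the cartilage and neural lists 6 each, the endothelial and primitive endoderm lists 7 each, and the neural crest and glia list 8. As shares, the endothelial and primitive endoderm (7 of 8) and cartilage lists (6 of 8) were over that of all genes, and the muscle and kidney (5 of 7) and neural crest and glia lists (8 of 12) were near it. The other lists were under it, and none of these differences was tested.

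Of the ES cell markers, 11 of 11 measured genes were over the highest cutoff, among them Nanog (11.00 ± 0.20) and Esrrb (10.13 ± 0.057). Of the fibroblast markers, 13 of 16 were over the receptor cutoff and 10 over the highest, beside 72.1% and 42.0% of all genes. These differences were not tested. Lum and Fap were below background on every array, and S100a4 was below it on repeat 2. The summed intensity of the fibroblast markers was 3534, 4862 and 3672 in repeats 1, 2 and 3. It was highest on the array where 17 of the 28 members were lowest. The summed intensity of the ES cell markers was highest there too (17427, 18556 and 16970). Repeat 2 was the highest array for 11 of the 13 detected fibroblast markers and 7 of the 11 ES cell markers, against 36.9% of all genes above background. The limma test called 2 of the fibroblast markers, Acta2 (adjusted p = 0.00807) and Lox (adjusted p = 0.0191). These lay 1.29 and 1.35 log2 units higher in repeat 2 than the mean of the others. The part of fibroblast markers in the values of Sox, Pou and Pax genes was not tested.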

How the data were processed

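The authors deposited 1 intensity per probe set and array on a linear scale. The submitters' processing notes name GCOS 1.4. How background, normalization and probe set summary were handled, and on which build, is not given in the sources used. Median intensity was 47.8, 46.7 and 46.8 in repeats 1, 2 and 3. Having 3 arrays limits precision.

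Of 26730 probe sets, 20764 had 1 gene symbol in the platform annotation, 1419 had several and 4547 none listed, and only the first were used. The deposited intensity was taken to log2 and averaged over the probe sets of a gene. Members and lists were chosen with earlier results of these data known. Every member is named, and list genes are named from the smaller side of a call or for a large SD; Nanog, Esrrb, Kpnb1, Tle4, Paxip1, Six4, Eya3, Lum, Fap, Acta2 and Lox, with the genes named as passing a cutoff, were named after their values were seen.

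The variance test used limma 3.58.1 in R 4.3.3, with an intercept-only fit, a trended robust prior and an F test on 2 and 9.893 degrees of freedom, Benjamini-Hochberg adjusted over 13610 genes at 0.05. It was also run on simulated data, with genes changed on 1 array. Of 50 genes each, it called 3 at a change of 0.5 log2 units, 36 at 1, and all 50 at 1.5 and at 2. It also called 11 unchanged genes. Other steps used Python 3.11.15 and pandas 2.3.3. The planned comparison of protein sequences was not made. Alternatives were other cutoffs, 2 of 3 arrays, quantile normalization, centring, the highest probe set, log2(intensity + 16), other priors, no filter and leaving out each repeat.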

Additional observations from a re-analysis of the deposited data

How the results depend on the processing

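The count of members above background depended on the cutoff more than on the other choices tried. It was 28 at the main cutoff, 11 at the 99th percentile of the receptor genes (Pou 2, Pax 0) and 6 with other silent families as background (Sox 6, Pou 0, Pax 0). It was 28 or 29 under the other alternatives run, with Pax3 gained where 2 of 3 arrays sufficed or repeat 1 was left out, and Pou3f2 gained with its brighter probe set. Of 310 single member calls recomputed, 268 were kept, 39 lost and 3 gained, and all 39 losses came from the stricter cutoffs, which fewer genes can pass. The median of repeat 1 minus the mean of the others was 0.098 over the 28 members. It was -0.0048 over the 11 members above the 99th percentile and -0.051 over the 6 above the other silent families, where Pou and Pax genes no longer took part, and for repeat 3 it went from -0.022 to 0.069 over the 11. Leaving out 1 repeat gave 28 to 29 members, and from 0.071 to 0.13 for repeat 1. No member was called for variance under any alternative run. The unadjusted limma p of Pou2f3 was 0.013 without repeat 2 (adjusted p = 0.597) and 0.043 without the trended prior (adjusted p = 0.969). No paired analysis was possible because the series holds 1 group.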
